A study of Mus musculus with 12 samples.

Results

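The post-transcriptional gene regulator (PTGR) screen asked which mouse proteins lower the output of a reporter mRNA when they are tethered to it. Its 2 sorted libraries were compared with its own 2 unsorted libraries, which make 4 of the 12 libraries in the series. Insertions of a tagging cassette were counted per gene as unique positions (chromosome, coordinate and strand) that lay at most 200 kb upstream of the exon they were assigned to. At least 1 such insertion was found for 17091 of the 20409 genes in the deposited tables, and the comparison runs across these genes.

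All 4 libraries came from mouse embryonic stem (mES) cells of the AN3-12 line, wild type apart from a Puro-IRES-GFP-10xBoxB reporter that had integrated at random and a tamoxifen-inducible Cre recombinase. A single clonal reporter line was used, so that the integration site of the reporter was the same in every cell. The cells were transduced with ORFtag, a retroviral cassette with a constitutive promoter, neomycin resistance, a λN peptide and a splice donor. Splicing from the cassette into a downstream exon joins the λN peptide to the rest of the encoded protein, and λN binds the boxB hairpins of the reporter mRNA. Unsorted cells were taken after G418 selection. Sorted cells had passed repeated sorts for low GFP with growth between them, then removal of the boxB sites by 4-hydroxytamoxifen and Cre, then a last sort for high GFP. Sorting, time in culture and the tamoxifen treatment differ together between the arms and cannot be told apart. Insertion lists hold no expression values, so the embryonic stem cell label could not be checked against marker genes.

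mRNA output is set by competing steps. Argonaute proteins loaded with microRNAs bind TNRC6 (GW182) proteins, and these recruit the CCR4-NOT complex, which shortens poly(A) tails. Nonsense-mediated decay (NMD) degrades mRNAs with premature stop codons through UPF proteins and the SMG1 kinase complex. The cap-binding protein 4EHP (Eif4e2) and the eIF4E partner 4E-T (Eif4enif1) repress translation from the cap. Decapping enzymes, the exosome and many sequence-specific RNA-binding proteins act beside them.

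Depth within 200 kb was 60980 and 58560 insertions in the sorted libraries, and 233799 and 54088 in the unsorted ones. A count of 3, the limit that a count of 0 allows, equals 0.492 and 0.512 per 10000 insertions in the sorted libraries and 0.128 and 0.555 in the unsorted ones. The lists give no read numbers, so the number of cells behind an insertion is unknown, and cells that divided between sorts are not independent events. Of the positions in sorted replicate 1, 18.2% also stood in unsorted replicate 1 and 0.342% in unsorted replicate 2. Of those in sorted replicate 2, 6.76% stood in unsorted replicate 2 and 1.79% in unsorted replicate 1. Sorted and unsorted libraries of the same number therefore share more positions than libraries of different numbers.

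The splice acceptors that received most insertions at genes described below are shown because they set where each fusion protein begins. Each line gives the last 20 intronic and the first 8 exonic bases on the strand of the gene in GRCm38, with the intronic AG in capitals.
Ago2 exon 2, chr15:73146558-73146585, minus strand: gtctccctactgttttccAGttcttgct
Tnrc6b exon 5, chr15:80858661-80858688, plus strand: catgtcatttctttttacAGagagaagg
Cnot2 exon 2, chr10:116549168-116549195, minus strand: tttggataattccactctAGagggagaa
Cnot9 exon 2, chr1:74517050-74517077, plus strand: tttcttgttttcccctaaAGcctgtgcc
Smg9 exon 2, chr7:24403372-24403399, plus strand: aacctccttgttccttccAGgtgaccat
Maco1 exon 7, chr4:134812691-134812718, minus strand: tgcctttctccctttcccAGgctggaac
Trim71 exon 2, chr9:114525114-114525141, minus strand: cccgtctctctggtccacAGgtcctgca
Parp14 exon 2, chr16:35866281-35866308, minus strand: ttttttttttaacatttcAGttcggcag
The Ago2 acceptor took all 72 sorted insertions of that gene and leaves 99.1% of the coding sequence in the fusion. The Tnrc6b acceptor took 162 sorted insertions and leaves 97.9%, and the Cnot9 acceptor took 106 and leaves 97.3%. By contrast, the Trim71 acceptor, with 277 sorted insertions, leaves 68.3%, and the Maco1 exon 7 acceptor, with 79, leaves 42.1%. Cassettes for every reading frame had been mixed, and the lists do not name the cassette. The shares of coding sequence given here and below therefore take no account of the frame.

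In the sorted cells, insertions accumulated at 40 of 9303 genes tested, 0.430% of them (one-sided Fisher's exact test on summed libraries at an adjusted p under 0.001, together with a log2OR, the log2 odds ratio, of 1 or more). These 40 genes held 4.85% and 4.25% of the sorted insertions and 0.870% and 0.906% of the unsorted ones. Their median log2OR was 2.44, with a range from 1.23 at Pnrc1 to 4.97 at Cep44, and the latter rests on 1 unsorted insertion (standard error, SE, 1.5). The genes include 5 microRNA effectors, 2 CCR4-NOT subunits, 3 NMD factors, 2 cap-binding or translational repressors and 5 TRIM proteins. Depletion was called at 4 of 4144 genes, 0.0965% of them. The spread between replicates enters the quasi-likelihood test of edgeR, in which 34 of 8491 genes (0.400%) were higher and 1 (0.0118%) was lower. All 34 are among the 40 enriched genes. With the replicate number as a block edgeR called 44 genes higher (0.518%) and 7 lower (0.0824%), 39 of the 40 enriched genes among them.

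**Figure D1:**
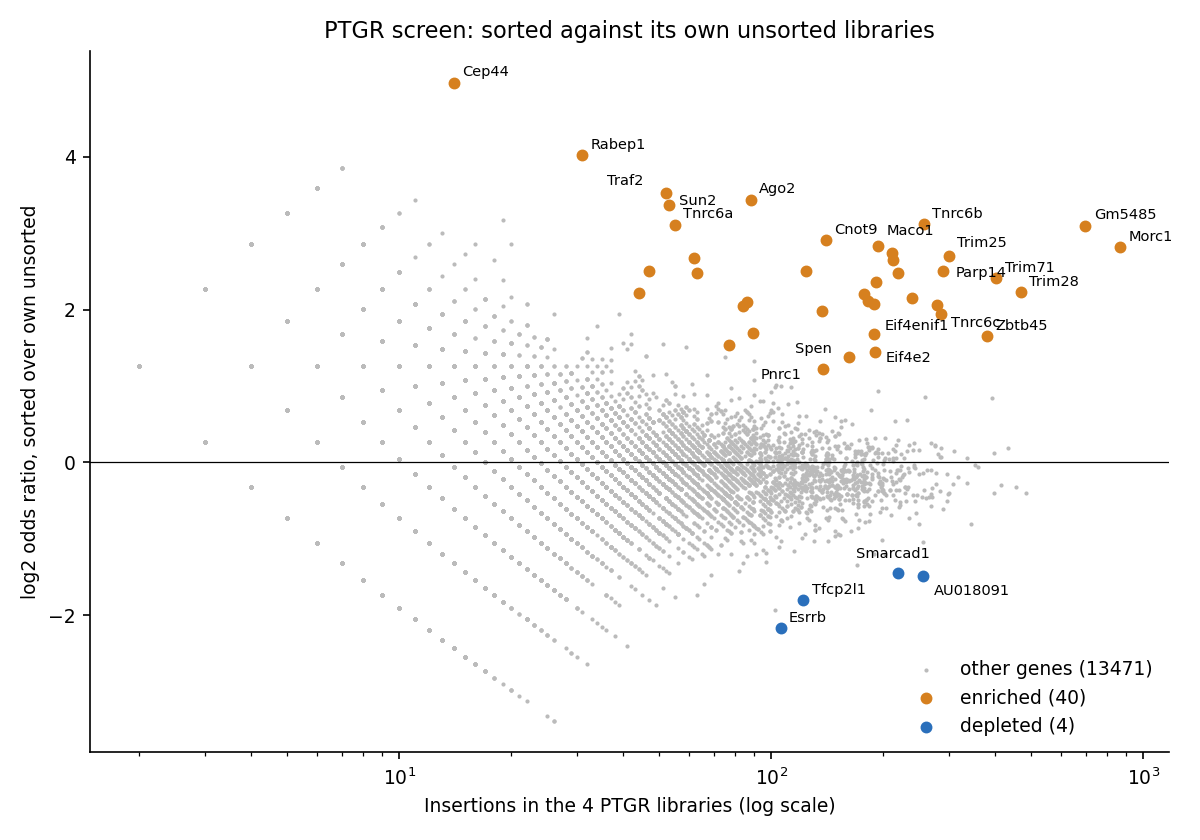
Log2 odds ratio of each gene, sorted over own unsorted libraries (y axis), against its insertions summed over the 4 PTGR libraries (x axis, log scale), for genes with insertions in both arms. Points are genes, with the 40 enriched genes in orange and the 4 depleted genes in blue, and the orange points lie between 1.23 and 4.97.

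Of the 7 microRNA effectors 6 were tested and 5 enriched, the largest share of any list. Ago2, the Argonaute that can cleave its targets (ENSMUSG00000036698, chromosome 15, 73095844 to 73184935, minus strand), had 22 and 50 insertions in the sorted and 13 and 3 in the unsorted libraries. That is 3.61 and 8.54 per 10000 sorted insertions against 0.556 and 0.555 per 10000 unsorted insertions. Both sorted values lie above both unsorted values, which was so for 11.9% of all fitted genes. The log2OR was 3.44 (SE 0.40, adjusted p = 1.43e-21 in Fisher's exact test, adjusted p = 1.79e-05 in edgeR). Most of the cassettes had landed before the start of the annotated gene, 83.3% of them in the sorted and 75% in the unsorted libraries. Tnrc6b, a GW182 scaffold that binds Argonautes and CCR4-NOT, had 102 and 99 sorted against 41 and 15 unsorted insertions, or 16.7 and 16.9 against 1.75 and 2.77 per 10000. The sorted libraries lie close together here, with a mean of 16.8 ± 0.127 per 10000 (SD, n = 2) against 2.26 ± 0.721, and the log2OR was 3.11 (SE 0.22, Fisher's exact test adjusted p = 1.22e-55).

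The other GW182 genes showed the same direction with a wider spread. Tnrc6c had 64 and 111 sorted against 78 and 32 unsorted insertions, or 10.5 and 19.0 against 3.34 and 5.92 per 10000 (log2OR 1.94, SE 0.18). Tnrc6a had 8 and 35 against 7 and 5, or 1.31 and 5.98 against 0.299 and 0.924 per 10000 (log2OR 3.11, SE 0.47). Sorted replicate 2 carried most of the Tnrc6a insertions, and its enrichment was no longer called without that library or without unsorted replicate 1. Ago1 had 8 and 25 sorted against 9 and 5 unsorted insertions (log2OR 2.51, SE 0.46), and its call was lost without the same libraries. In each case 3 of the 5 effectors stayed called. In edgeR its adjusted p fell from 0.0513 to 0.0100 once the replicate number was a block, and the stratified exact test did not call it. Ago3 had 1 and 0 sorted against 6 and 1 unsorted insertions and Ago4 had 6 and 1 against 7 and 1, so that both were rarely tagged. Of the 8 microRNA biogenesis genes, which act on microRNA precursors, 3 had enough sorted insertions to be tested and none of these was enriched. All 4 with enough insertions for edgeR had a log2 fold change below 0 (median -1.04) without passing the test, while 4135 of all 8491 fitted genes lay above 0. Their sorted counts were low, with 2 and 0 at Dgcr8, 2 and 1 at Dicer1, 4 and 4 at Drosha and 1 and 2 at Lin28a.

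CCR4-NOT is the main cytoplasmic deadenylase, and of its 11 subunits 10 were tested and 2 enriched. Cnot2 (ENSMUSG00000020166), a subunit of its NOT module, had 63 and 91 sorted against 46 and 13 unsorted insertions. Per 10000 these are 10.3 and 15.5 against 1.97 and 2.40, with a log2OR of 2.65 (SE 0.22, Fisher's exact test adjusted p = 3.05e-35, edgeR adjusted p = 5.87e-06). Cnot9 (ENSMUSG00000026174), the subunit with the tryptophan-binding pockets for GW182 proteins, had 80 and 26 against 31 and 3, or 13.1 and 4.44 against 1.33 and 0.555 per 10000. Sorted replicate 1 held the larger share, and both sorted values lie above both unsorted values, beside 11.9% of all fitted genes (log2OR 2.91, SE 0.28, Fisher's exact test adjusted p = 7.86e-27). In DESeq2, the alternative count model, Cnot9 did not pass (adjusted p = 0.0946). Cnot3, the NOT-module partner of Cnot2, had only 8 and 4 against 4 and 0 insertions. Its log2OR was 2.85 (SE 0.83), and it was not called (Fisher's exact test adjusted p = 0.0362, edgeR adjusted p = 0.544). For the scaffold Cnot1 the log2OR was 1.39 from 13 and 11 against 19 and 3 insertions, and for the deadenylase Cnot8 it was 1.19 from 11 and 6 against 16 and 2. The other deadenylase genes were rarely tagged or flat, with 0 and 1 against 1 and 0 insertions at Cnot7 and a log2OR of -0.16 at Cnot6. Of the 9 subunits fitted in edgeR, 7 had a fold change above 0 and the median log2 fold change was 1.28, beside -0.01 over all 8491 fitted genes, of which 4135 lay above 0.

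Of 13 NMD genes 10 were tested, and Smg1, Smg5 and Smg9 were enriched. Without unsorted replicate 1, Smg1 and Smg5 were not called and only Smg9 was. Smg9, a regulatory subunit of the SMG1 kinase, had 69 and 61 sorted against 48 and 13 unsorted insertions, or 11.3 and 10.4 against 2.05 and 2.40 per 10000. Smg1, the kinase that phosphorylates UPF1, had 44 and 73 against 46 and 19, or 7.22 and 12.5 against 1.97 and 3.51 per 10000. Their log2OR were 2.36 (SE 0.22) and 2.12 (SE 0.22), with Fisher's exact test adjusted p = 1.37e-25 and 9.21e-20. Smg5, which joins phosphorylated UPF1 to decay enzymes, had 22 and 23 against 14 and 3 insertions (log2OR 2.67, SE 0.41). The sorted values of these 3 enriched genes lie above the unsorted ones, beside 11.9% of all fitted genes. Smg6, the endonuclease of the pathway, had a log2OR of 0.15 from 9 and 3 against 25 and 1 insertions. Upf2, a core NMD factor, had 25 and 21 against 36 and 8 insertions (log2OR 1.33, SE 0.30). It missed the threshold in Fisher's exact test (adjusted p = 0.00248) and in edgeR (adjusted p = 0.199) and passed in edgeR with the replicate block (adjusted p = 0.00606). Upf1 itself had 0 and 3 against 6 and 0 insertions. In the exon junction complex, which marks spliced mRNAs for NMD, 3 of 9 genes were tested and none was enriched. Casc3, with 8 and 7 against 3 and 1 insertions, was not called (Fisher's exact test adjusted p = 0.00233, edgeR adjusted p = 0.123, and 0.0161 once blocked).

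Of the 16 cap-binding and translational repressor genes that the tables hold, with 10 of them tested, Eif4e2 and Eif4enif1 were enriched. Eif4enif1 had 45 and 63 sorted against 58 and 23 unsorted insertions, or 7.38 and 10.8 against 2.48 and 4.25 per 10000 (log2OR 1.68, SE 0.21), and it was not called without unsorted replicate 1. Eif4e2 had 47 and 54 against 76 and 13, or 7.71 and 9.22 against 3.25 and 2.40 per 10000 (log2OR 1.45, SE 0.21). Both passed edgeR, with adjusted p = 0.00816 and 0.00705. Gigyf2, which binds 4EHP, had 8 and 6 against 9 and 2 insertions and was not called (log2OR 1.62, Fisher's exact test adjusted p = 0.331). The cap-binding protein Eif4e and the repressor Eif4ebp1 were not enriched, with 1 and 0 against 4 and 0 and with 29 and 29 against 92 and 22 insertions. Of 27 translation initiation factors 13 were tested for enrichment and none was called, and the median log2 fold change of the 14 fitted was -0.04.

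Other steps of mRNA turnover had few or no enriched members. Among 22 decapping and 5′ to 3′ decay genes, 15 of them tested, Pnrc1, which binds decapping proteins, was called, with 39 and 29 sorted against 59 and 11 unsorted insertions (log2OR 1.23, SE 0.25). In edgeR its adjusted p was 0.116, and 0.000257 once blocked by replicate, and without sorted or unsorted replicate 1 Fisher's exact test did not call it. The decapping factors Dcp1a, Dcp2 and Ddx6 had a log2OR of 0.66, -0.16 and -0.45. Of 15 exosome genes 8 were tested and of 14 deadenylation adaptors and PAN2-PAN3 genes 10, none of which was called, and Pan3 had the highest log2OR of the latter, 1.48 (Fisher's exact test adjusted p = 0.125). Of 15 m6A genes that the tables hold, with 9 of them tested, Virma, a subunit of the m6A methyltransferase, was called, with 27 and 15 against 28 and 7 insertions (log2OR 1.53, SE 0.33). The edgeR adjusted p of Virma was 0.161 without and 0.00129 with the block, and Virma was not called without either replicate 1 library or without unsorted replicate 2. No sequence-specific mRNA regulator was called among the 31 tested of 44 in the tables.

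**Figure D2:**
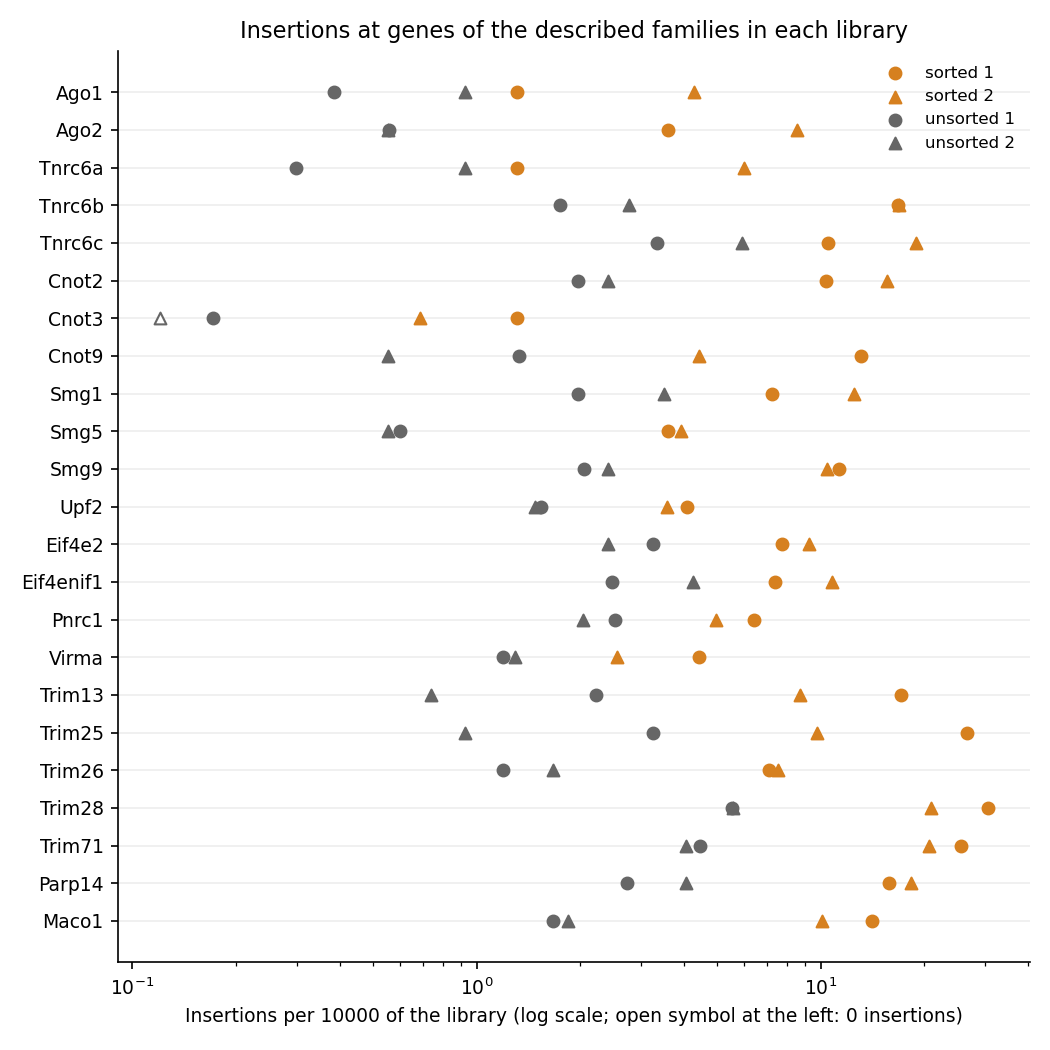
Insertions per 10000 insertions of the library (x axis, log scale) in each of the 4 PTGR libraries for 23 genes of the described families, orange for sorted and gray for unsorted, circles for replicate 1 and triangles for replicate 2. Most of these genes were chosen as enriched, and at all 23 both sorted values lie above both unsorted values, beside 11.9% of all fitted genes, and the open triangle at Cnot3 stands for 0 insertions.

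The TRIM family of RING-type ubiquitin ligases had 5 enriched members among 28 tested of 67, and these were among the genes with most sorted insertions. Trim28 (KAP1), the corepressor of KRAB zinc finger proteins, had 187 and 122 sorted against 129 and 30 unsorted insertions, or 30.7 and 20.8 against 5.52 and 5.55 per 10000. Trim71 (LIN41), a stem cell protein that binds and represses mRNAs, had 156 and 121 against 104 and 22, or 25.6 and 20.7 against 4.45 and 4.07 per 10000. Trim25, an RNA-binding ligase of the RIG-I pathway, had 162 and 57 against 76 and 5, or 26.6 and 9.73 against 3.25 and 0.924 per 10000. For Trim25 the first pair held more insertions on both sides of the sort, and the odds ratio was similar in each pair, 3.03 and 3.40 on the log2 scale. Trim13, a ligase anchored in the endoplasmic reticulum, had 104 and 51 against 52 and 4 insertions (log2OR 2.74), and Trim26 had 43 and 44 against 28 and 9 (log2OR 2.50). All 5 passed edgeR, and Trim25 did not pass DESeq2 (adjusted p = 0.233). Among the other TRIM genes fitted in edgeR the log2 fold change was highest at Trim41, with 0.87, and the median over the 26 fitted was 0.19.

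Parp14, an ADP-ribosyltransferase with macrodomains, was the single enriched gene among 13 tested of 17 in the PARP family. It had 96 and 107 sorted against 64 and 22 unsorted insertions, or 15.7 and 18.3 against 2.74 and 4.07 per 10000 (log2OR 2.51, SE 0.19, Fisher's exact test adjusted p = 1.64e-43). Zc3hav1 (ZAP), a family member that binds CpG-rich RNA, had 30 and 56 against 88 and 20 insertions. Its log2OR of 0.94 lies under the limit, and its Fisher's exact test adjusted p was 0.00147. Maco1 (macoilin), a membrane protein of the endoplasmic reticulum, had 86 and 59 against 39 and 10 insertions, or 14.1 and 10.1 against 1.67 and 1.85 per 10000 (log2OR 2.83, SE 0.24, Fisher's exact test adjusted p = 7.67e-36). At Maco1 insertions led mainly to exon 7 and exon 2, and those that keep at least 50% of the coding sequence made 44.2% and 42.4% of the sorted and 43.6% and 10.0% of the unsorted insertions. The unsorted share of 10.0% is 1 of 10 insertions.

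**Figure D3:**
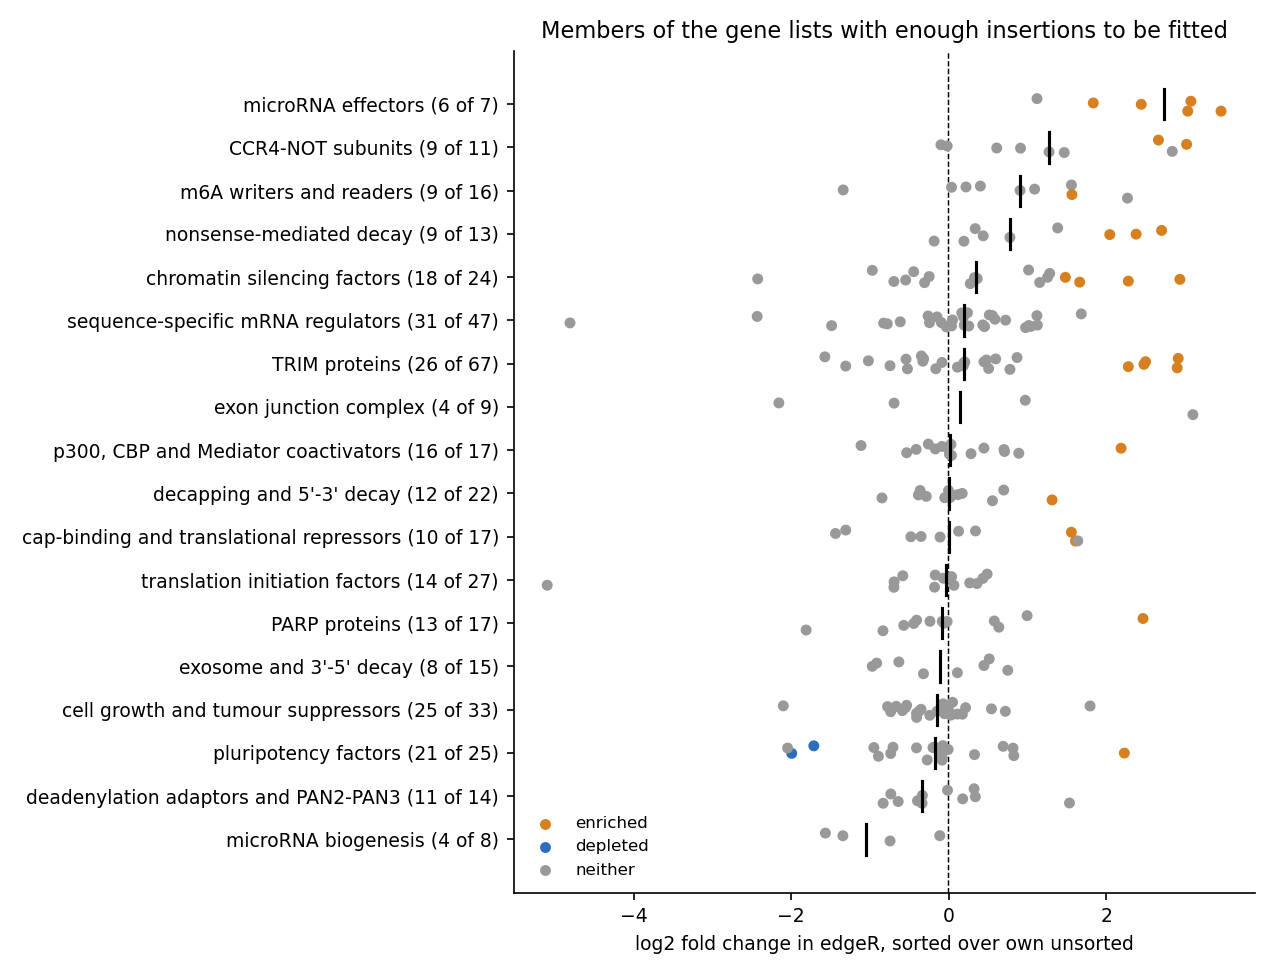
Log2 fold change in edgeR, sorted over own unsorted libraries (x axis), of each gene with at least 10 insertions in 18 of the gene lists, in brackets the number fitted of the number listed. Orange points are enriched genes, blue points depleted genes, and black bars list medians, which run from -1.04 for microRNA biogenesis to 2.74 for microRNA effectors.

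Members of the chromatin silencing list and 1 member of the coactivator list were called as well. Morc1, a germ-cell factor in transposon silencing, had 370 and 276 sorted against 188 and 34 unsorted insertions, or 60.7 and 47.1 against 8.04 and 6.29 per 10000. The predicted gene Gm5485, its divergent neighbour on the opposite strand, had 347 and 198 against 123 and 31, or 56.9 and 33.8 against 5.26 and 5.73 per 10000. The zinc finger gene Zbtb45, which lies within the annotated span of Trim28 on the opposite strand of chromosome 7, had 129 and 86 against 130 and 35, or 21.2 and 14.7 against 5.56 and 6.47 per 10000. The 23 chromatin silencing genes that the tables hold, 18 of them tested, include 4 enriched ones, namely Morc1, Zbtb45, Trim28 and Spen, a corepressor in X inactivation. Spen had 20 and 64 against 67 and 11 insertions, or 3.28 and 10.9 against 2.87 and 2.03 per 10000. Sorted replicate 1 hardly differed from unsorted replicate 1 at Spen (log2OR 0.19), and the call was lost without sorted replicate 2 or without unsorted replicate 1. In edgeR the adjusted p of Spen was 0.132, and 0.00168 once blocked by replicate. Of the 17 coactivator genes 16 were tested, and the histone acetyltransferase Ep300 was the only enriched one. It had 107 and 70 against 88 and 14 insertions (log2OR 2.06, SE 0.18), and its paralog Crebbp had 8 and 14 against 44 and 10 (log2OR -0.03). Ncoa3 of the same list had 12 and 19 against 141 and 30 (log2OR -1.20). It was not called depleted (Fisher's exact test adjusted p = 0.00153). Zc3h4, which restrains non-coding transcription, was the only enriched gene whose sorted and unsorted values overlap, with 3.28 and 16.6 against 1.75 and 3.70 per 10000.

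Pou5f1 (OCT4), the central pluripotency factor, was enriched, with 91 and 64 sorted against 70 and 14 unsorted insertions, or 14.9 and 10.9 against 2.99 and 2.59 per 10000 (log2OR 2.15, SE 0.20). Depletion in the same list of 24 genes in the tables was called at Esrrb and Tfcp2l1, transcription factors of naive pluripotency. Esrrb had 6 and 3 sorted against 85 and 12 unsorted insertions, or 0.984 and 0.512 against 3.64 and 2.22 per 10000 (log2OR -2.16, SE 0.50). Tfcp2l1 had 4 and 9 against 90 and 19, or 0.656 and 1.54 against 3.85 and 3.51 per 10000 (log2OR -1.80, SE 0.42). The chromatin remodeler Smarcad1 had 12 and 17 against 158 and 32 insertions (log2OR -1.44, SE 0.29), and AU018091 had 16 and 17 against 173 and 50 (log2OR -1.49, SE 0.27). At each of the 4 genes both sorted values lie below both unsorted values, which was so for 20.5% of all fitted genes. In edgeR only AU018091 passed (adjusted p = 0.0226), and the other adjusted p-values were 0.106, 0.123 and 0.116 without the block and 0.0063, 0.00204 and 0.000944 with it, for Esrrb, Tfcp2l1 and Smarcad1. Esrrb and Tfcp2l1 also lost the call in the stratified exact Cochran-Mantel-Haenszel test, and without either sorted library 0 of the 4 genes were called. Nanog and Sall4, with 11 and 16 against 98 and 28 and 13 and 18 against 85 and 40 insertions, were not called (log2OR -0.95 and -0.74).

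Ribosomal protein genes and genes of cell growth were listed to describe selection during culture. Of 75 ribosomal protein genes 39 were tested for enrichment and of 33 growth and tumour suppressor genes 28, none of which was called, and the median log2 fold changes of the 43 and 25 fitted were -0.01 and -0.15. Trp53 had 12 and 12 against 51 and 14 insertions (log2OR -0.17).

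The remaining enriched genes belong to none of the lists and are named because of their values. The ubiquitin ligase Mib2, which acts on Notch ligands, had 72 and 81 against 51 and 15 insertions, and the cyclic GMP phosphodiesterase Pde9a had 46 and 39 against 45 and 7. Tnip1, a partner of the ubiquitin editor A20, had 74 and 46 against 53 and 16, Ikbkg (NEMO), the regulatory subunit of the IκB kinase, 30 and 21 against 31 and 7, and the TNF receptor adaptor Traf2 15 and 28 against 6 and 3. At each of these genes, which were chosen as enriched, both sorted libraries held more insertions per 10000 than both unsorted ones, beside 11.9% of all fitted genes. The autophagy receptor Optn had 32 and 21 against 26 and 5 insertions, the sphingomyelinase Smpd4 39 and 16 against 27 and 4, and Ncoa5 27 and 17 against 17 and 2. The Rab5 effector Rabep1 had 15 and 12 against 4 and 0 insertions, the nuclear envelope gene Sun2 28 and 15 against 10 and 0, and the ubiquitin ligase Rnf219 17 and 12 against 11 and 4. In edgeR the adjusted p of Rnf219 was 0.0631 without and 0.00137 with the block. Cep44 had 2 and 11 against 0 and 1, the smallest counts of all 40 genes, and was the only enriched gene that edgeR did not call with the replicate block (adjusted p = 0.252).

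The replicate pairs were then compared. Of the 40 enriched genes 37 had a log2OR of at least 1 in sorted 1 over unsorted 1 and in sorted 2 over unsorted 2, the exceptions being Spen (0.19 and 2.43), Zc3h4 (0.90 and 2.17) and Virma (1.89 and 0.99). At 39 of them both sorted values exceeded both unsorted values, beside 11.9% of all fitted genes. Because the 40 genes were called on the sums of these same libraries, both counts are favoured by the choice and are a description. Tested alone by Fisher's exact test, the first pair called 35 of 6329 genes (0.553%) and the second pair 24 of 5926 (0.405%). Both called 19 of the 40 genes, among them Ago2, Tnrc6b, Tnrc6c, Cnot2, Smg1, Smg9, Maco1, Parp14 and the TRIM genes, 18 were called in 1 pair, and Ago1, Cep44 and Pnrc1 in neither. Sorted replicate 2 held more insertions per 10000 than replicate 1 at all 5 enriched microRNA effectors, by little at Tnrc6b, and replicate 1 held more at Trim13, Trim25, Trim28 and Trim71. Of the sorted insertions at the enriched genes, 21.5% and 8.03% also stood in the unsorted library of the same number, beside 19.5% and 6.98% over all genes, so most positions in the sorted libraries were not seen before sorting.

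**Figure D4:**
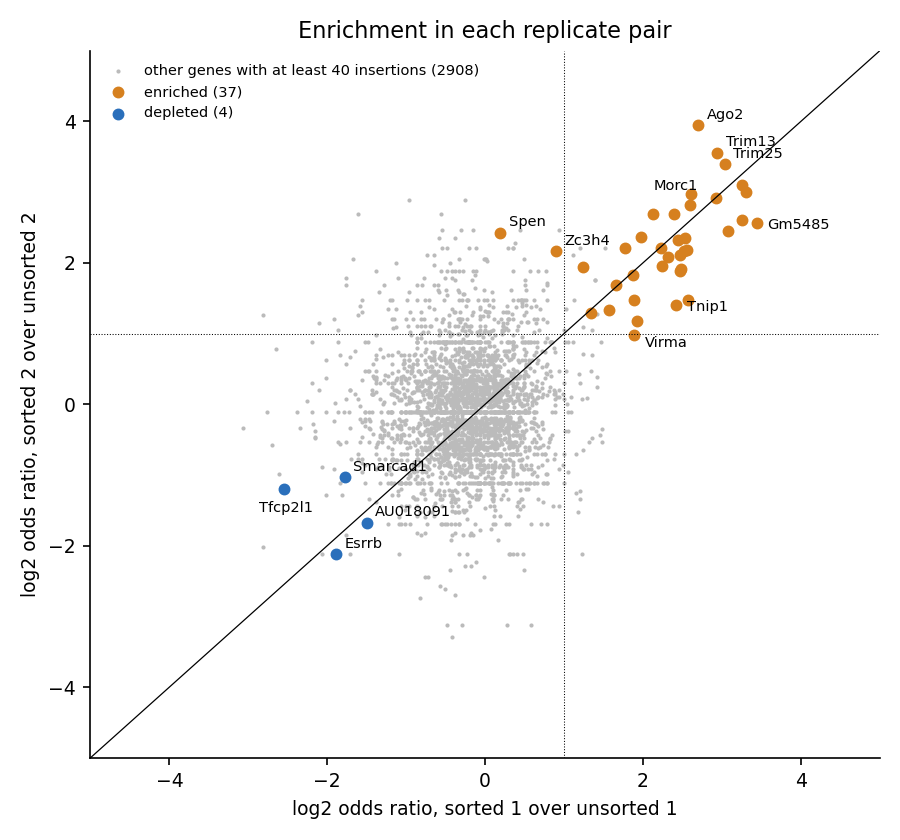
Log2 odds ratio of sorted 2 over unsorted 2 (y axis) against that of sorted 1 over unsorted 1 (x axis), with the 40 enriched genes in orange except Cep44, Rabep1 and Sun2, which had no insertion in 1 unsorted library, the 4 depleted genes in blue, and other genes with at least 40 insertions in gray. The diagonal marks equal values and dotted lines a log2OR of 1, and Spen, Zc3h4 and Virma are the orange points with a value under 1.

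The strand of the insertions within genes was examined next. A gene can be joined to the tag only by a cassette on its own strand, so insertions on the opposite strand serve as an internal control. Sense insertions made a median of 90.6% of all sorted insertions at the 35 enriched genes with enough insertions on both strands together, against 61.9% of the unsorted ones, while the median over all tested genes was 50.0% in both arms. The sense share was higher in the sorted libraries at 33 of these 35 genes, and 14 passed a two-sided Fisher's exact test of strand within the gene, beside 16 of all 3453 genes tested (0.463%). Because these genes were called on sense insertions, their shares are a description. At Trim71 the sense share was 93.3% against 61.8%, at Zc3h4 90.7% against 46.6% and at Tnrc6c 80.6% against 51.9%. Anapc16 (77.2% against 50.7%) and Zc3hav1 (77.5% against 55.1%) had a higher sense share without being enriched. The share was lower at 17 genes (0.492%), 13 of which were also called for reversed insertions.

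Counting each insertion for the gene on the opposite strand called 29 of 9204 genes enriched for reversed insertions (0.315%). For 27 of them, 78.9% to 100% of the sorted reversed insertions lay at positions that were also assigned, in sense, to an enriched gene. Usp37 thus mirrored Cnot9 with 106 of 106 insertions, Rhd mirrored Maco1 with 145 of 149, and Parp9 mirrored Parp14 with 203 of 216. Dync1li1 mirrored Trim71 with 277 of 301. When the positions of enriched genes were left out, an alternative chosen after seeing the data, 4 genes were called, 3 of them from the 29. The exceptions among the 29 were Gm11627, with 34 of 35 insertions at Meioc, and Pou5f1, whose 121 sorted reversed insertions (105 unsorted) include 0 that were assigned in sense to another gene. Morc1 kept 89 sorted against 29 unsorted reversed insertions, and Nkain1 was new, with 142 against 175.

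Enrichment on both strands was called at 5 genes, Morc1, Gm5485, Trim28, Zbtb45 and Pou5f1. Morc1 and Gm5485 lie head to head on chromosome 16, and all 465 sorted reversed insertions of Gm5485 were sense insertions of Morc1. In the same way all 305 reversed insertions of Zbtb45 were sense insertions of Trim28, and 215 of the 218 reversed insertions of Trim28 were sense insertions of Zbtb45. The members of each pair thus share positions across strands, and through which gene an insertion acted was not tested. At Pou5f1 the sense share was 56.2% in the sorted and 44.4% in the unsorted libraries (two-sided Fisher's exact test adjusted p = 0.51).

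Exon use within a gene was compared between the arms, because an insertion nearer the end of the coding sequence makes a shorter fusion. Of 1082 genes tested 4 were called (0.370%), Eif4e2, Eif4enif1, Tmem131 and Ppp2r2d, the first 2 of which were among the 26 enriched genes tested. At Eif4e2, insertions led to exon 7 in 34.0% and 31.5% of cases in the sorted and in 61.8% and 61.5% in the unsorted libraries (two-sided Fisher's exact test adjusted p = 0.0208). Exon 2 showed the opposite, with 42.6% and 64.8% against 11.8% and 23.1%. The acceptors of these exons are printed to show where the fusions begin.
Eif4e2 exon 2, chr1:87219561-87219588, plus strand: tattttgctttcctatgtAGcttaaaag
Eif4e2 exon 7, chr1:87232383-87232410, plus strand: ttttgtctctggtttaccAGggcctggg
Eif4e2 exon 7, chr1:87237826-87237853, plus strand: tctcccattttctctttcAGggacaatt
The exon 2 acceptor keeps 97.4% of the coding sequence and took 55 sorted and 12 unsorted insertions. Of the 4 acceptors numbered exon 7, which belong to different transcripts, the 2 with most insertions are printed. They keep 6.07% and 0% and took 23 and 6 sorted against 32 and 15 unsorted insertions, while the others keep 9.52% and 14.4% and took 3 and 1 against 8 and 0. Insertions that keep at least 50% of the coding sequence thus made 66.0% and 66.7% of the sorted and 36.8% and 38.5% of the unsorted insertions of this gene. With 2 libraries an arm an exact permutation test of such shares cannot give a two-sided p below 0.333.

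At Eif4enif1 the shift was between neighbouring exons near the start. Exon 2 received 57.8% and 65.1% of the sorted against 86.2% and 91.3% of the unsorted insertions, and exon 3 received 42.2% and 33.3% against 12.1% and 8.70% (two-sided Fisher's exact test adjusted p = 0.0208).
Eif4enif1 exon 2, chr11:3203610-3203637, plus strand: tgcctaattttattttccAGgtgcaaaa
Eif4enif1 exon 3, chr11:3213240-3213267, plus strand: catgtgatttttctttttAGgaggagct
The exon 2 acceptor keeps the whole coding sequence and the exon 3 acceptor 96.8% of it. Testing acceptor positions in place of exon numbers, an alternative chosen after seeing the data, called 3 of 1115 genes, Eif4e2 (two-sided Fisher's exact test adjusted p = 2.12e-06), Eif4enif1 (adjusted p = 0.0255) and Ppp2r2d, and not Tmem131 (adjusted p = 0.164). The exon test weighs positions that lie close together as separate events. With neighbouring positions merged, neither Eif4e2 (adjusted p = 0.249, two-sided Fisher's exact test) nor Eif4enif1 (adjusted p = 0.142) was called, and Eif4enif1 lost its call whichever of the 4 libraries was left out (adjusted p = 0.0588 to 0.797). Eif4e2 lost it without sorted replicate 2 (adjusted p = 0.142, two-sided Fisher's exact test) and had too few insertions to be tested without unsorted replicate 1.

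**Figure D5:**
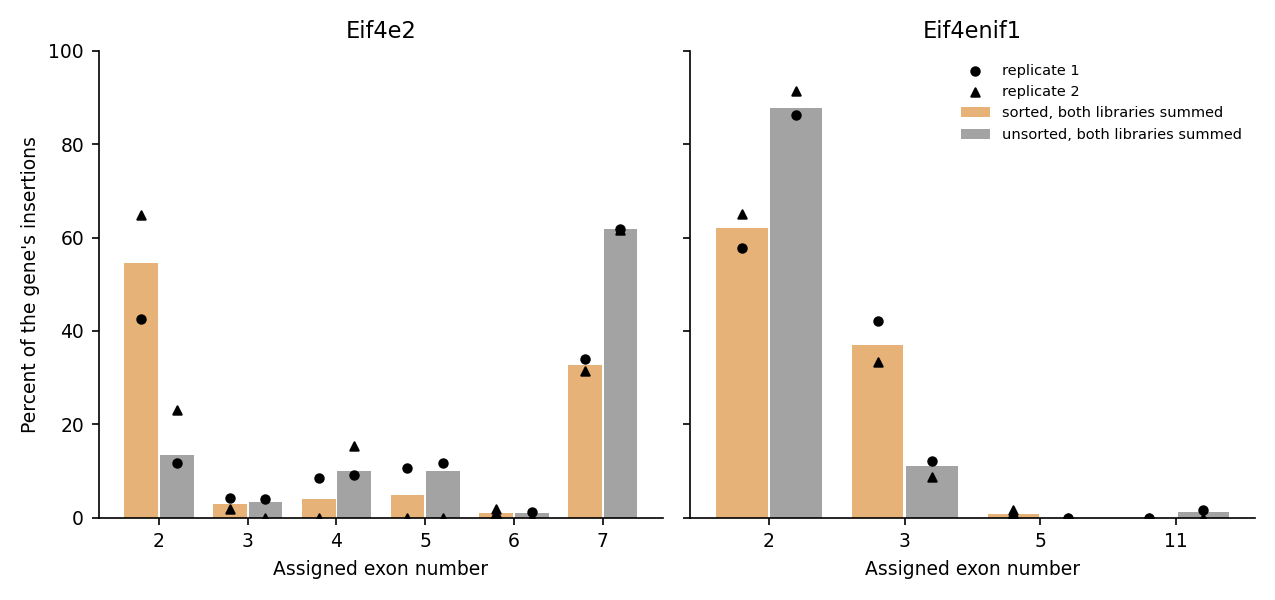
Percent of the insertions of Eif4e2 and Eif4enif1 (y axis) by the number of the exon they were assigned to (x axis), bars for both libraries of an arm summed, orange for sorted and gray for unsorted, circles for replicate 1 and triangles for replicate 2. At Eif4e2 exon 7 took 61.8% of the unsorted and 32.7% of the sorted insertions, and at Eif4enif1 exon 3 took 11.1% and 37.0%.

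Over all enriched genes, the fusions kept a median of 97.6% and 98.7% of the coding sequence in the sorted and 97.8% and 99.2% in the unsorted libraries, beside 96.1% to 96.6% over all genes. At least 50% was kept by 85.55% and 86.3% of their sorted and 85.1% and 86.3% of their unsorted insertions, beside 89.6% to 90.8% over all genes. Some genes lay far below these medians. The median kept was 25.7% at Morc1 in both arms, and 27.9% sorted against 36.6% unsorted at Virma. For the 13 sorted insertions of Cep44 it was 3.45%. Insertions at the enriched genes lay nearer to their exon, at a median of 7683 and 8406 bp in the sorted and 9454.5 and 9166 bp in the unsorted libraries, beside 29864 to 31768 bp over all genes. The distance was thus short at these genes before sorting as well.

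The enrichment was set against that in the repressor and activator screens, in which the tag was a DNA-binding domain. A test of the difference in edgeR over all 12 libraries called 61 of 12809 genes higher in the PTGR screen than in the repressor screen (0.476%) and 119 lower (0.929%). Against the activator screen it called 16 higher (0.125%) and 71 lower (0.554%). Of the 40 enriched genes, 15 were higher than in the repressor screen, 3 lower and 22 not called, and 14 were higher than in the activator screen, 1 lower and 25 not called. The 9 genes higher than in both were Eif4e2, Gm5485, Mib2, Pou5f1, Tnip1, Tnrc6c, Trim25, Trim71 and Zc3h4. Several of these calls rest on very few sorted insertions in the other screens. The repressor and activator screens had 1 and 1 at Zc3h4, 1 and 2 at Mib2 and 1 and 0 at Trim25. They had 1 and 7 at Trim71, 3 and 1 at Tnip1, and 3 to 7 each at Eif4e2, Gm5485, Pou5f1 and Tnrc6c. Morc1, Trim28 and Spen went the other way against the repressor screen, where they had 737, 633 and 150 sorted against 249, 368 and 107 unsorted insertions. Depth in that screen was 22266 and 15204 sorted against 174276 and 176944 unsorted insertions, and the log2OR were 4.82, 4.03 and 3.72. Ep300 went the other way against the activator screen, with 389 sorted against 96 unsorted insertions (log2OR 5.61). Ago2, Tnrc6b, Cnot9 and Smg9 were not called in either difference, and the other screens had 0 to 6 sorted insertions at these genes. A missed call there does not show that the screens acted alike.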

How the data were processed

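Cassette insertions had been mapped through inverse PCR in 4 libraries of the PTGR screen, 2 sorted and 2 unsorted. For the deposited lists, the authors used Trim Galore 0.6.0 for trimming, Bowtie2 for alignment to mm10 and SAMtools 1.9 to drop duplicates and poorly mapped reads. They then linked every insertion to the closest exon downstream of it, never the first of its transcript, among protein-coding GENCODE models. A line of these lists is a position and a distance in bp, deposited for the mapped and for the flipped strand, with no read counts. Of the authors' deposited tables of counts and odds ratios per gene, which also hold p-values of their comparison, gene names were taken and nothing else.

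Unique positions within 200 kb were counted per gene with Python 3.11.15 and pandas 2.3.3, since 12.8% of the lines of PTGR sorted replicate 2 repeat a position. Libraries of an arm were summed and compared by one-sided Fisher's exact tests (scipy 1.17.1) with Benjamini-Hochberg adjustment over genes with at least 3 sorted insertions (at least 20 unsorted insertions for depletion). Enrichment needed an adjusted p below 0.001 and a log2OR of at least 1, depletion a log2OR of at most -1, and no value was added to the counts. SEs of log2OR cover counting error only. Replicate spread was taken into account with the quasi-likelihood test of edgeR 4.0.16 in R 4.3.3 (TMM factors 0.981 to 1.03, genes with at least 10 insertions, adjusted p below 0.05), and DESeq2 1.42.0 was an alternative. The 2 replicates of an arm are 2 transductions of 1 clonal line, so that p-values measure the spread between these only. Exon use and strand were tested within genes by two-sided Fisher's exact tests with at least 20 insertions in each arm and an adjusted p below 0.05. The reversed assignment was tested like the sense one. Differences from other screens came from 1 edgeR fit over 12 libraries.

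Replicate numbers pair the libraries. Besides the shared positions, the difference between the sorted libraries correlated with that between the unsorted libraries across 2958 genes with at least 40 insertions (r = 0.268, genes not being independent). Blocked values stand beside results they change.

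Exon positions, acceptor bases and the share of coding sequence kept were read from GENCODE vM21 and the GRCm38 genome, while the authors' GENCODE release was not used here. In each library at least 99.7% of insertions led to an acceptor annotated in vM21. The genes named are 14 that the study's text singles out, list members that were called, the 15 enriched genes with most sorted insertions that passed in each pair alone and were not called for reversed insertions, the called depleted genes, genes called on both strands and genes called for exon use. Further genes were chosen after their values were seen. Some results are not reported here. The genes, lists and tests were chosen with earlier results of these data known. Alternatives covered a background of 6 unsorted libraries, other thresholds, distances and normalizations, merged neighbouring positions (at most 10 bp apart), every listed line, acceptor position in place of exon number and reversed insertions without positions of enriched genes (both chosen after seeing the data), a stratified exact Cochran-Mantel-Haenszel test, and leaving out each library.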

Additional observations from a re-analysis of the deposited data

Results flagged for a closer look

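These genes are listed because the test of the difference between screens passed in edgeR (adjusted p below 0.05 over 12809 genes). Each value is the log2 fold change, sorted over own unsorted, in the PTGR screen minus that in the other screen. No explanation was weighed.

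Against the repressor screen, the difference was 3.73 at Tnrc6c, 3.50 at Eif4e2 and 3.78 at Eif4enif1, where that screen had 3, 3 and 1 sorted insertions. Cnot2 differed by 8.39 and Ago1 by 8.07, but the repressor screen had no sorted insertion at either gene, so these fitted values depend on the prior count and are no bound. Smpd4 (7.74) is of the same kind. The difference was 5.48 at Trim71, 4.34 at Trim25 and 4.93 at Mib2, each with only 1 sorted insertion in the repressor screen. Further values were 3.12 at Parp14, 4.41 at Zc3h4, 3.49 at Tnip1, 4.13 at Gm5485, 3.37 at Ep300 and 2.75 at Pou5f1. In the same order, the repressor screen had 2, 1, 3, 6, 4 and 7 sorted insertions at these genes. With the replicate block Ago1, Smpd4, Eif4enif1 and Parp14 no longer passed (adjusted p = 0.22, 0.085, 0.094 and 0.089 in edgeR).

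Genes that stood lower than in the repressor screen were Morc1 (-1.93), Trim28 (-1.81) and Spen (-2.32), which were enriched in both screens. The genes depleted in the PTGR screen differed more, by -4.91 at Esrrb, -4.44 at Smarcad1 and -3.35 at Tfcp2l1. The repressor screen had 131, 275 and 35 sorted against 175, 318 and 111 unsorted insertions at these genes. Relative to depth these are gains in the repressor screen (log2OR 2.82, 3.03 and 1.56), and the differences include them.

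Against the activator screen the difference was 3.03 at Tnrc6c and 2.95 at Eif4e2. Smg1 differed by 8.74 and Trim25 by 8.62, and the activator screen had no sorted insertion at either gene, so neither value is a bound. It was 3.30 at Trim71, 2.99 at Trim28, 2.68 at Zbtb45, 3.74 at Morc1, 4.24 at Gm5485 and 4.19 at Spen. At Mib2 it was 3.59, at Tnip1 4.67, at Zc3h4 4.63 and at Pou5f1 2.68. The values at Spen, Tnip1 and Zc3h4 rest on only 1 sorted insertion each in the activator screen, and that at Mib2 on 2. Ep300 was the only enriched gene below the activator screen, with -3.25.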

How the results depend on the processing

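The 40 enriched genes became 62 against 6 unsorted libraries, all 40 among them, and 23 to 41 when a library was left out, with 23 without PTGR unsorted replicate 1. That library held most of the unsorted insertions. Without it Ago1, Cep44, Eif4enif1, Ikbkg, Ncoa5, Optn, Pnrc1, Rabep1, Rnf219, Smg1, Smg5, Smpd4, Spen, Tnrc6a, Traf2, Virma and Zc3h4 were not called. Without sorted replicate 1 the losses were Ikbkg, Ncoa5, Optn, Pnrc1, Rnf219, Smpd4 and Virma, without sorted replicate 2 they were Ago1, Cep44, Spen, Tnrc6a and Zc3h4, and without unsorted replicate 2 Virma. With the replicate block in the Cochran-Mantel-Haenszel test 39 genes were called, 38 of them from the 40, without Ago1 and Cep44. Merging neighbouring positions lost Cep44 and Virma, and a limit of 50 kb lost Cep44.

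The 4 depleted genes became 11 against 6 unsorted libraries, 7 with every listed line, 1 with neighbours merged, 10 at an adjusted p below 0.05, 3 with the replicate block (2 shared, without Esrrb and Tfcp2l1) and 0 to 8 when a library was left out, with 0 without either sorted library. The 29 genes enriched for reversed insertions became 46 against 6 unsorted libraries, 19 within 50 kb, 4 with positions of enriched genes left out, and 15 to 32 when a library was left out, with 15 without unsorted replicate 1. The 4 genes called for exon use became 3 by acceptor position (without Tmem131), 1 with neighbours merged and 0 to 4 when a library was left out, with 0 without sorted replicate 2 and 0 without unsorted replicate 1. The 33 strand differences became 12 to 30 when a library was left out.

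In edgeR the 34 higher genes became 44 with the replicate block and 0 to 41 when a library was left out, with 13 without unsorted replicate 1 and 0 without unsorted replicate 2, where the lone unsorted library is assumed to vary like the sorted ones. At an unadjusted p below 0.05 edgeR had 167 genes higher and 149 lower. The 1 lower gene became 7 with the replicate block, 2 without TMM, 2 with all genes, 2 with neighbours merged, 0 within 50 kb, 0 in DESeq2 and 0 to 1 when a library was left out. DESeq2 called 29 of the 40 enriched genes higher, not Ago1, Cnot9, Ikbkg, Pnrc1, Rnf219, Spen, Tnrc6a, Trim25, Virma and Zc3h4, and gave Cep44 no adjusted p. The 180 differences from the repressor screen became 134 with the block and 112 to 180 when a library was left out, and the 87 from the activator screen 82 and 44 to 81. No value changed its direction where it was called. Unsorted replicate 2 held 0 insertions at Cnot3, Rabep1 and Sun2, which at its depth allows up to 0.555 per 10000.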

Other observations

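Against 6 unsorted libraries, those of the PTGR screen together with those of the other screens, 22 further genes were called enriched that its own unsorted libraries did not call. They include Cnot3 (log2OR 3.87 against 6 libraries, 2.85 against its own), Casc3 (3.30 and 3.18), Upf2 (1.74 and 1.33), Pan3 (2.23 and 1.48), the antiviral RNA-binding protein Zc3hav1 (1.14 and 0.94), and Khnyn, a nuclease partner of Zc3hav1 (2.71 and 2.38). Against its own libraries 16 of the 22 had a log2OR of at least 1, with a median of 1.53. At all 22 genes the PTGR unsorted libraries held more insertions, relative to depth, than the other unsorted libraries (median log2OR 0.61), a direction that the choice of these genes favours. The largest such value was at Mitd1, 2.77, from 8 insertions in the PTGR unsorted and 3 in the other unsorted libraries. These genes were chosen after their values were seen, and no test was run on them as a set.

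With the replicate block, edgeR called 12 genes that were not enriched, of which AU018091 was called without it as well. Among the higher ones were Casc3 (log2 fold change 3.14, SE 0.80), Rif1 (1.45, SE 0.32), a telomere and replication timing factor, Tet1 (0.96, SE 0.23), which oxidizes methylcytosine, and Upf2 (1.43, SE 0.34). Lower, besides AU018091, Esrrb, Tfcp2l1 and Smarcad1, were the nuclear receptor coactivator Ncoa3 (-1.14, SE 0.29), Traf3ip2 (-1.98, SE 0.44) and E330021D16Rik (-1.21, SE 0.32).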
